A study of Mus musculus with 10 samples.

Results

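The 9 genes described here encode the germ cell and somatic forms of 4 enzymes of glucose and pyruvate metabolism. They were chosen by name, as the rows of the deposited gene tables whose symbol was Gapdhs, Gapdh, Pgk2, Pgk1, Ldhc, Ldha, Ldhb, Pdha2 or Pdha1, which is 9 of 36806 rows in each table. The 4 germline copies are Gapdhs, Pgk2, Ldhc and Pdha2, and the other 5 genes are their somatic partners. Messenger RNA was sequenced from male Ago4-/- mice and their Ago4+/+ littermates on the C57BL/6 background, where Ago4 encodes an Argonaute protein that binds small RNAs. The material was whole testis at 3 and at 8 days of age, and isolated spermatocytes labelled leptotene/zygotene or pachytene from mice of 70 days, with 1 library per genotype in each.

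The deposited tables hold levels in FPKM, a count of sequenced fragments scaled to transcript length and library size, for 2 conditions at day 3, in pre-meiotic material, at leptotene/zygotene and at pachytene. The tables call these conditions only the first and the second, and the sources used here do not say which of them is Ago4-/-, so every fold is the second condition over the first with no genotype attached. The age of testis behind the pre-meiotic table is equally unnamed, and its columns are described with those of day 3 as young testis. The tables were normalised separately, so a level set across tables carries that limit, whereas a ratio of 2 genes within 1 column does not.

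Glycolysis splits glucose into pyruvate, which is either reduced to lactate or carried into mitochondria and turned into acetyl-CoA. Male germ cells use several enzyme forms of their own for these steps, and sperm carry part of them along the flagellum, where glycolysis supplies energy for swimming. Pgk1 and Pdha1 lie on the X chromosome, which is silenced in pachytene spermatocytes, and Pgk2 and Pdha2 are autosomal retrocopies of them.

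Ago4 itself, listed under its older symbol Eif2c4 (ENSMUSG00000042500), had 1.23 FPKM in the second condition and 0.897 FPKM in the first condition at day 3, and 3.34 FPKM in the second and 2.53 FPKM in the first in pre-meiotic material. It had 3.26 FPKM in the second condition and 1.67 FPKM in the first condition at leptotene/zygotene, and 12.1 FPKM in the second and 4.37 FPKM in the first at pachytene. The authors' deposited table called the difference at leptotene/zygotene (q = 0.0385) and at pachytene (q = 0.000147). These are levels of the whole gene, and no source used here names the deleted part, so they were not used to name the conditions. The libraries labelled leptotene/zygotene went against their label in most but not all markers. Their summed FPKM of 6 spermatid genes (Prm1, Prm2, Tnp1, Tnp2, Acrv1 and Odf1) was 56526 in the second condition and 47639 in the first condition, against 9368 in the second and 7273 in the first at pachytene and 1.13 to 66.7 in young testis. Their summed FPKM of 6 leptotene/zygotene genes (Stra8, Dmc1, Spo11, Sycp3, Sycp1 and Prdm9) was 108 in the second and 128 in the first condition, against 312 in the second and 321 in the first at pachytene. Sycp3, Spo11 and Sycp1 carried this sum. Stra8 went the other way, with 6.43 FPKM in the second and 8.36 FPKM in the first condition there, against 6.05 FPKM in the second and 4.08 FPKM in the first at pachytene, as did Prdm9, with 4.90 FPKM in both conditions there, against 4.83 FPKM in the second and 3.18 FPKM in the first at pachytene. They are called the libraries labelled leptotene/zygotene throughout, and the pair ratios, counts of genes above or below and correlations are also given without them. The pachytene libraries held spermatid genes too, above the sum of 6 pachytene genes (Piwil1, Hspa2, Spata16, Ccna1, Mybl1 and Adam3) there. That sum was 2908 FPKM in the second and 3028 FPKM in the first condition at pachytene. Leaving out the libraries labelled leptotene/zygotene thus does not remove spermatid RNA. Levels given below for spermatocytes are those of the columns so labelled, whatever cells they held. Markers of Sertoli cells, which nurse the germ cells, summed to 491 to 1119 FPKM over 5 genes in young testis and to 9.05 to 21.9 FPKM in the spermatocyte columns. In such bulk samples, fewer cells of a type and less RNA per cell cannot be told apart.

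The windows upstream of the 4 germline copies are shown because these genes were high in the same columns, and that of Ldha is shown because it was the somatic partner that was high there too. Each runs from 250 bases before to 50 bases after the most upstream start listed by RefSeq on GRCm38.p6, 5′ to 3′ on the gene's own strand. Capitals mark letters searched on both strands, which were the cyclic AMP response element TGACGTCA, its core TGACG, the MYB cores CAACNG and TAACNG, the TATA box TATAAA and the CCAAT box. The GC box GGGCGG was also searched on both strands and is not set in capitals.
Gapdhs (chr7:30743632-30743931, minus strand): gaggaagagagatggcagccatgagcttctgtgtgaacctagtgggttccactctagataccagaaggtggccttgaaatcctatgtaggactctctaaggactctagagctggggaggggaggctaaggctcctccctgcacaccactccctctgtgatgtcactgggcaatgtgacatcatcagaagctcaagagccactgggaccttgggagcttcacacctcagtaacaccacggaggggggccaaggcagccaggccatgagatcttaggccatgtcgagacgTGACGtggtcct
Pgk2 (chr17:40208560-40208859, minus strand): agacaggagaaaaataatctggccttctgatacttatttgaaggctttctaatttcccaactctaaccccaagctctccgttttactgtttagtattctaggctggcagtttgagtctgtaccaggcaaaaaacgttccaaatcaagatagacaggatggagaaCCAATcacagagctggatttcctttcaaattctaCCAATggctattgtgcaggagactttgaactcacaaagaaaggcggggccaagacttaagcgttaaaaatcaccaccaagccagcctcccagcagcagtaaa
Ldhc (chr7:46861013-46861312, plus strand): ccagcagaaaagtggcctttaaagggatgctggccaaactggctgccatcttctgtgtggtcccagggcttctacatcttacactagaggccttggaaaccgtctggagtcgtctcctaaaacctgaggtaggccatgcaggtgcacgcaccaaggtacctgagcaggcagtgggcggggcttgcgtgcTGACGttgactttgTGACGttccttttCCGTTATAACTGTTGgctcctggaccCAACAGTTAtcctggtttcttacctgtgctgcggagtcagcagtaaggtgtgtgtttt
Ldha (chr7:46845554-46845853, plus strand): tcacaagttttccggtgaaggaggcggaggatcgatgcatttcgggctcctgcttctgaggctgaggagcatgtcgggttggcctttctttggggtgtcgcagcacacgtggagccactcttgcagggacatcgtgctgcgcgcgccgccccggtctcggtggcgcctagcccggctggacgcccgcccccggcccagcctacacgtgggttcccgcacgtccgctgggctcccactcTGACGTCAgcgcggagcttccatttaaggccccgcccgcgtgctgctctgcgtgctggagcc
Pdha2 (chr3:141212306-141212605, minus strand): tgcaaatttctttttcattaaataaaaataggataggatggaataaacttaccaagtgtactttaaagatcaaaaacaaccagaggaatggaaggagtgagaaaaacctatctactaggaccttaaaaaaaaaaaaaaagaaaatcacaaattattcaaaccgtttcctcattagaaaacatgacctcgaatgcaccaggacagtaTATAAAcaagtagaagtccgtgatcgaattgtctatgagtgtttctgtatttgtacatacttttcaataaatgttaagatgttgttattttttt

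No motif searched was in all 4 germline windows. The Ldhc window held TGACG at -61 and -47 from the start and MYB cores at -34, -28, -25, -8 and -5, some of which overlap. The Ldha window held the whole response element at -12, which contains the core on both strands. The Gapdhs window held TGACG at 38 past the start, the Pgk2 window held CCAAT at -86 and -52, and the Pdha2 window held TATAAA at -44. The GC box was in the Ldhc window at -78 and in the Ldha window at -105, -67 and 19, and 35.7% of the RefSeq windows counted below held it. Over 32851 RefSeq windows of the same length, TGACGTCA was present in 1.79%, TGACG in 20.8%, CAACNG in 35.02%, TAACNG in 23.3%, TATAAA in 13.6% and CCAAT in 37.4%, so every motif but the whole response element is common. The windows of the germline copies had 4 CpG dinucleotides in Gapdhs, Pgk2 and Pdha2 and 9 in Ldhc. Those of the somatic partners had 24 in Pgk1, 21 in Pdha1, 30 in Ldha, 17 in Ldhb and 12 in Gapdh, and the median of all windows was 7. All 4 germline windows thus held fewer CpG dinucleotides than any of the 5 somatic ones. A match of letters is a description of the window and not a bound site.

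Every germline copy was higher in all 4 spermatocyte columns than in any young testis column, and 4 of the 5 somatic partners were lower in all 4. The exception was Ldha, which was higher in spermatocytes together with the germline copies. The summed FPKM of the 9 genes came from germline copies for 0.514% in the second condition and 0.891% in the first condition at day 3, and for 3.52% in the second and 3.83% in the first in pre-meiotic material. The share was 94.9% in the second and 94.8% in the first condition of the libraries labelled leptotene/zygotene, and 90.9% in the second and 91.5% in the first at pachytene. With levels under 1 FPKM raised to 1 and a gap of at least 2-fold, 5 members lay above and 4 below, while 13.9% of 22082 genes with a level lay above and 27.0% below. From pachytene alone the same 5 members lay above and the same 4 below, while 16.4% of all genes lay above and 28.5% below.

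**Figure D1:**
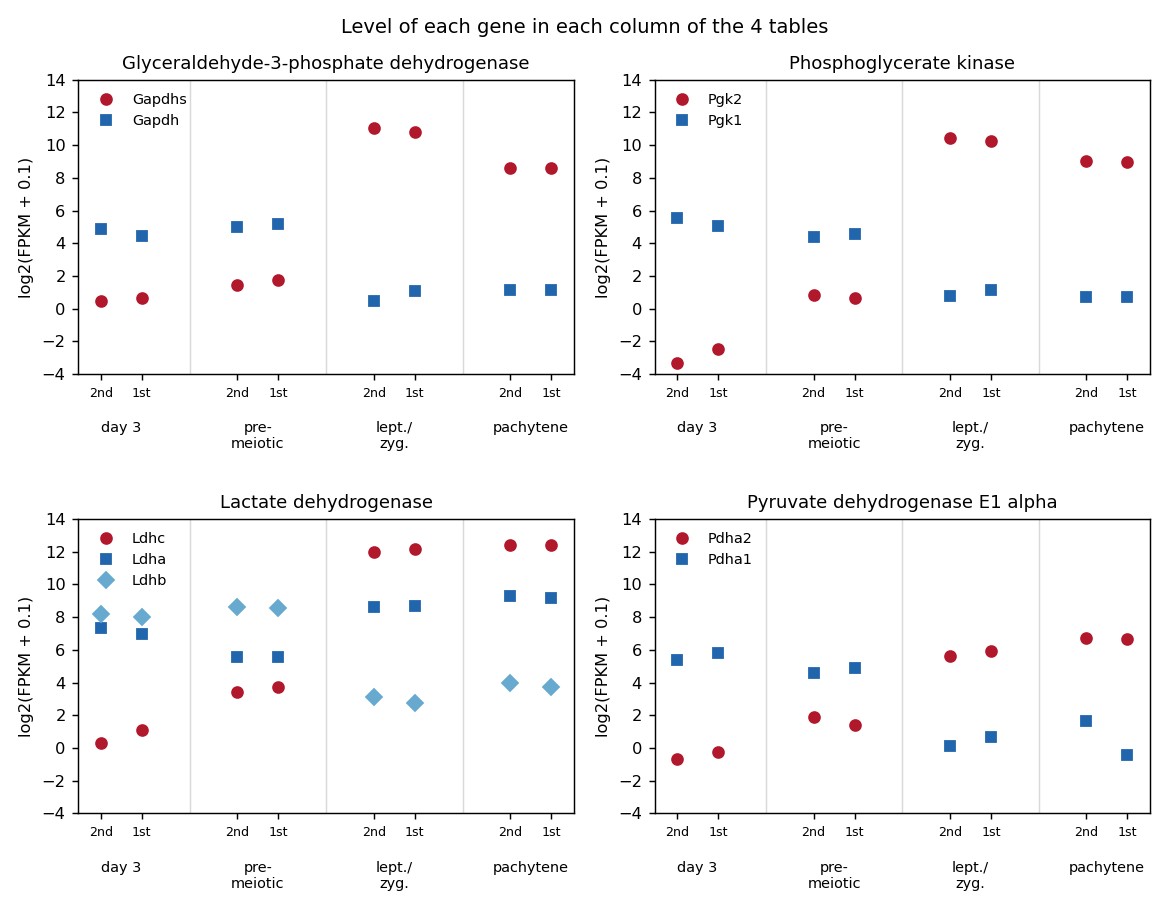
Level of each gene in the second (2nd) and first (1st) condition of each table, on a log2(FPKM + 0.1) axis, 1 point per library, with germline copies in red and somatic partners in blue. Within each panel red points lie above blue ones in both spermatocyte tables and below them in both young testis tables, and the Ldha squares stay high throughout.

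Gapdhs encodes the glyceraldehyde-3-phosphate dehydrogenase of sperm, which is anchored to the fibrous sheath of the flagellum (ENSMUSG00000061099, chromosome 7, 31514799 to 31528700 in the coordinates of the deposited tables, whose build the sources used here do not name). It had 1.28 FPKM in the second condition and 1.502 FPKM in the first condition at day 3, and 2.69 FPKM in the second and 3.26 FPKM in the first in pre-meiotic material. It had 2109 FPKM in the second and 1802 FPKM in the first condition of the libraries labelled leptotene/zygotene, and 395 FPKM in the second and 387 FPKM in the first at pachytene. The 4 spermatocyte columns lay above the 4 young testis columns, the lowest of them 119 times the highest young one. Gapdh, the form of other cells (ENSMUSG00000057666, chromosome 6, 125111871 to 125116485), had 29.2 FPKM in the second and 21.8 FPKM in the first condition at day 3 and 31.3 FPKM in the second and 36.8 FPKM in the first in pre-meiotic material. It had 1.27 FPKM in the second and 2.06 FPKM in the first condition of the libraries labelled leptotene/zygotene, and 2.13 FPKM in the second and 2.08 FPKM in the first at pachytene. The lowest young testis column was 10.2 times the highest spermatocyte column. Gapdh thus stood near the low end of the scale in spermatocytes, although it is widely used as a constant standard. It has many processed pseudogenes, and the assignment of reads shared with them is unknown here, so its low values are uncertain.

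Pgk2 encodes the germ cell phosphoglycerate kinase, the first step of glycolysis that yields ATP (ENSMUSG00000031233, chromosome 17, 40343963 to 40345554). It was listed at 0 in the second condition and had 0.0803 FPKM in the first condition at day 3, and had 1.73 FPKM in the second and 1.51 FPKM in the first in pre-meiotic material. It had 1380.35 FPKM in the second and 1212 FPKM in the first condition of the libraries labelled leptotene/zygotene, and 519 FPKM in the second and 496 FPKM in the first at pachytene. The lowest spermatocyte column was 287 times the highest young testis column. Pgk1, its X-linked parent (ENSMUSG00000062070, 103382439 to 103399038), had 45.8 FPKM in the second and 33.7 FPKM in the first condition at day 3 and 20.9 FPKM in the second and 23.3 FPKM in the first in pre-meiotic material. It had 1.62 FPKM in the second and 2.09 FPKM in the first condition of the libraries labelled leptotene/zygotene, and 1.57 FPKM in the second and 1.52 FPKM in the first at pachytene. The lowest young testis column was 9.99 times the highest spermatocyte column. Gapdhs and Pgk2 were both higher in the libraries labelled leptotene/zygotene than at pachytene, as were the spermatid genes given above, and the part of spermatid RNA in this order was not tested.

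Ldhc encodes the lactate dehydrogenase subunit of spermatocytes and sperm (ENSMUSG00000030851, chromosome 7, 54116573 to 54133512). It had 1.14 FPKM in the second condition and 2.06 FPKM in the first condition at day 3, and 10.6 FPKM in the second and 13.1 FPKM in the first in pre-meiotic material. It had 4116 FPKM in the second and 4507 FPKM in the first condition of the libraries labelled leptotene/zygotene, and 5408 FPKM in the second and 5421 FPKM in the first at pachytene. At pachytene it ranked 1 in the second condition and 6 in the first condition among the 36806 rows, and in the libraries labelled leptotene/zygotene it ranked 20 in the second and 17 in the first. The lowest spermatocyte column was 314 times the highest young testis column. Ldha, the subunit typical of muscle, begins 5′ of Ldhc on the same strand, and 5575 bases separate the pair in the deposited coordinates (ENSMUSG00000063229, chromosome 7, 54096845 to 54110997). It had 164 FPKM in the second and 126 FPKM in the first condition at day 3 and 47.3 FPKM in the second and 46.4 FPKM in the first in pre-meiotic material. It had 395 FPKM in the second and 405 FPKM in the first condition of the libraries labelled leptotene/zygotene, and 623 FPKM in the second and 577 FPKM in the first at pachytene. Its lowest spermatocyte column was 2.41 times its highest young testis column, a far narrower gap than that of Ldhc.

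Ldhb, the subunit typical of heart (ENSMUSG00000030246, chromosome 6, 142438769 to 142456477), took the opposite course to Ldha. It had 287 FPKM in the second and 253 FPKM in the first condition at day 3 and 385 FPKM in the second and 377 FPKM in the first in pre-meiotic material. It had 8.62 FPKM in the second and 6.61 FPKM in the first condition of the libraries labelled leptotene/zygotene, and 15.7 FPKM in the second and 12.96 FPKM in the first at pachytene. The lowest young testis column was 16.1 times the highest spermatocyte column. The ratio of Ldha to Ldhb was 0.571 in the second and 0.498 in the first condition at day 3 and 0.123 in both conditions of pre-meiotic material. It was 45.9 in the second and 61.3 in the first condition of the libraries labelled leptotene/zygotene, and 39.6 in the second and 44.5 in the first at pachytene. Of these 3 genes, the columns labelled as spermatocytes thus held mainly Ldhc with Ldha next, on the FPKM scale. The young testis columns held mainly Ldhb. The part of spermatid RNA in the former was not tested.

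Pdha2 encodes the testis form of the E1 alpha subunit of pyruvate dehydrogenase, which turns pyruvate into acetyl-CoA (ENSMUSG00000047674, chromosome 3, 140872968 to 140875319). It had 0.519 FPKM in the second condition and 0.753 FPKM in the first condition at day 3, and 3.54 FPKM in the second and 2.53 FPKM in the first in pre-meiotic material. It had 49.9 FPKM in the second and 60.6 FPKM in the first condition of the libraries labelled leptotene/zygotene, and 104 FPKM in the second and 99.8 FPKM in the first at pachytene. It was the lowest of the 4 germline copies in every spermatocyte column, and its lowest spermatocyte column was 14.1 times its highest young testis column. Pdha1, the X-linked parent (ENSMUSG00000031299, 156426365 to 156576345), had 41.8 FPKM in the second and 55.3 FPKM in the first condition at day 3 and 24.0 FPKM in the second and 30.0 FPKM in the first in pre-meiotic material. It had 0.966 FPKM in the second and 1.47 FPKM in the first condition of the libraries labelled leptotene/zygotene, and 3.103 FPKM in the second and 0.658 FPKM in the first at pachytene. The lowest young testis column was 7.74 times the highest spermatocyte column. The deposited Pdha1 locus spans 149981 bases and can hold other genes. Pgk2 and Pdha2 resemble the transcripts of their X-linked parents, and the assignment of reads shared between them is likewise unknown here.

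The balance within each pair does not depend on how the tables were scaled. The ratio of Gapdhs to Gapdh was 0.0437 in the second condition and 0.0690 in the first condition at day 3, 0.0859 in the second and 0.0887 in the first in pre-meiotic material, 1666 in the second and 873 in the first in the libraries labelled leptotene/zygotene, and 186 in both at pachytene. That of Pgk2 to Pgk1 was 0.00238 in the first condition at day 3, where the second condition listed Pgk2 at 0, and 0.0827 in the second and 0.0647 in the first in pre-meiotic material. It was 851 in the second and 580 in the first condition of the libraries labelled leptotene/zygotene, and 330 in the second and 325 in the first at pachytene. These 2 pairs held the widest swings, and they were also more extreme in the libraries labelled leptotene/zygotene than at pachytene. The size of their spermatocyte ratios rests on low values of the somatic partner. These were 1.27 to 2.125 FPKM for Gapdh, whose low values are uncertain as said above, and 1.52 to 2.09 FPKM for Pgk1. The ratio of Ldhc to Ldha was 0.00694 in the second and 0.0164 in the first condition at day 3, 0.225 in the second and 0.283 in the first in pre-meiotic material, 10.4 in the second and 11.1 in the first in the libraries labelled leptotene/zygotene, and 8.68 in the second and 9.40 in the first at pachytene. That of Pdha2 to Pdha1 was 0.0124 in the second and 0.0136 in the first condition at day 3, 0.148 in the second and 0.0845 in the first in pre-meiotic material, 51.7 in the second and 41.2 in the first in the libraries labelled leptotene/zygotene, and 33.5 in the second and 152 in the first at pachytene. In all 4 pairs every spermatocyte ratio was above 1 and every young testis ratio was below 1, and the pre-meiotic ratios were above those of day 3 in both conditions.

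On the log2 scale with 0.1 FPKM added to both levels, the Gapdhs ratio averaged 8.81 ± 1.59 in spermatocyte columns and -3.78 ± 0.44 in young testis columns (SD, n = 4 each), a difference of 12.59. The Pgk2 ratio averaged 8.82 ± 0.68 in spermatocyte columns and -5.94 ± 2.66 in young testis columns, a difference of 14.77. The Ldhc ratio averaged 3.301 ± 0.16 in spermatocyte columns and -4.22 ± 2.63 in young testis columns, a difference of 7.52. The Pdha2 ratio averaged 5.72 ± 0.91 in spermatocyte columns and -4.59 ± 1.72 in young testis columns, a difference of 10.31. An exact two-sided permutation test gave p = 0.0286 for each pair, the smallest that 4 columns against 4 can give, and the Benjamini-Hochberg adjusted value over the 4 pairs was also 0.0286. Each set of columns holds 2 tables and, by the labels, should hold both genotypes, although age and genotype of the pre-meiotic columns are not named. Nothing says that the libraries are repeats of one another, and age, cell isolation and stage cannot be told apart in this comparison. The pairs were taken as germ cell and somatic forms with earlier results of these data known, so this p is no independent support for a difference. With pachytene as the only spermatocyte table, the differences were 11.25 for Gapdhs, 14.21 for Pgk2, 7.39 for Ldhc and 10.62 for Pdha2, and the exact permutation test could give no p below 0.133.

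**Figure D2:**
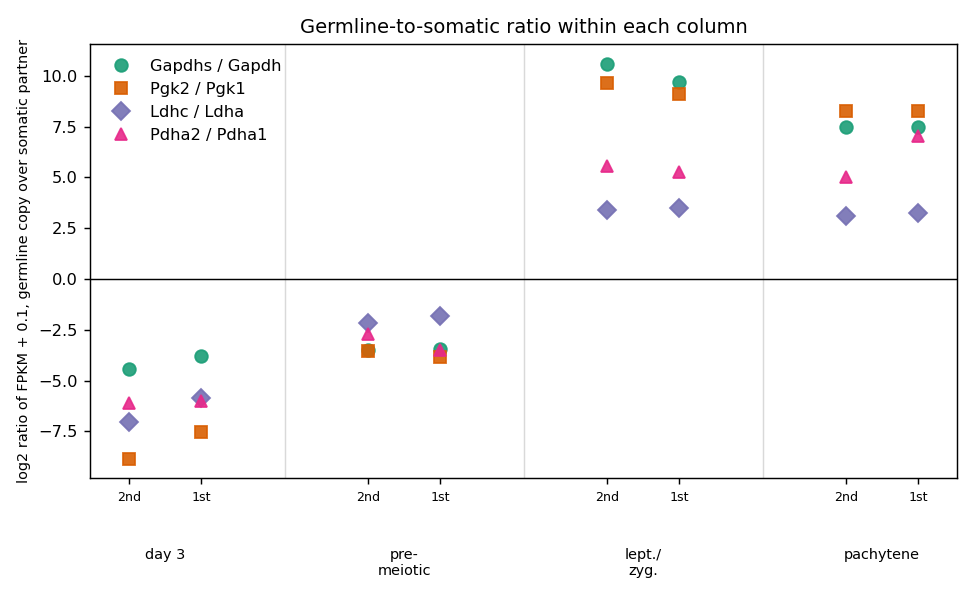
Log2 ratio of each germline copy to its somatic partner, with 0.1 FPKM added to both levels, in the second (2nd) and first (1st) condition of each table, 1 point per library. All 16 spermatocyte points lie above 0 and all 16 young testis points below it, and the Pdha2 triangles at pachytene are the spermatocyte pair farthest apart.

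The 2 conditions of a table should by the labels be 1 library of each Ago4 genotype. With only 9 members, counts between conditions are given beside the shares of all genes, and nothing particular to the members is read from them. The authors' deposited tables called 1 of 9 members at day 3, against 14.8% of all genes tested there, and 0 of 9 in the other tables, against 1.15% in pre-meiotic material, 2.14% at leptotene/zygotene and 1.63% at pachytene. These are Cuffdiff calls at a q-value of at most 0.05, which at day 3 took 4.80% of all genes on the higher side and 9.97% on the lower side. A fold of at least 2 in either direction was reached by 0 of 9 members at day 3, in pre-meiotic material and at leptotene/zygotene, against 14.2%, 13.7% and 18.2% of all genes, and by 1 of 9 at pachytene, against 17.8%. At an unadjusted p under 0.05 the count was 3 at day 3, 0 in pre-meiotic material, 1 at leptotene/zygotene and 1 at pachytene. The share of all genes under that limit was not counted, so nothing is read from these counts. The median log2 fold of the 9 members, with 0.1 FPKM added, was -0.22 at day 3, against 0.02 over all genes tested, but -0.11 with 1 FPKM added and -0.02 on the log2 folds of the authors' deposited table, which leave out Pgk2. It was -0.16 against 0.00 over all genes in pre-meiotic material, -0.13 against -0.06 at leptotene/zygotene and 0.06 against 0.01 at pachytene. By the labels each table should hold 1 library per genotype, so the errors given beside single folds are those implied by the authors' test statistics. These cover counting and modelling of 2 libraries and not the spread between mice.

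The member called was Pgk1 at day 3, higher in the second condition with 45.8 FPKM, against 33.7 FPKM in the first (log2 fold 0.44, implied error 0.16, q = 0.0350 in the authors' deposited table). Among the other somatic partners the log2 fold at day 3 was 0.38 for Ldha, 0.18 for Ldhb and 0.42 for Gapdh, and -0.41 for Pdha1. The germline copies had negative ones, with -0.80 for Ldhc, -0.46 for Pdha2 and -0.22 for Gapdhs, and Pgk2 was listed at 0 in the second condition only. None of these passed the authors' test. The log2 ratio of Ldhc to Ldha was lower in the second condition of day 3 by more than its combined error, with a change of -1.19 and a 95% interval of -2.04 to -0.33. In the same table, 5 spermatogonial markers summed to 82.2 FPKM in the second condition and 112 FPKM in the first condition, with Zbtb16, Gfra1 and Kit called lower. The 5 Sertoli markers summed to 1119 FPKM in the second condition and 844 FPKM in the first condition, a gap that came from Amh, with 916 FPKM in the second and 617 FPKM in the first and no call. Wt1 was the only Sertoli marker called, and it was lower in the second condition, with 103 FPKM against 134 FPKM in the first. The part of cell makeup in the day 3 folds was not tested.

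Among members above 0 in both conditions, the largest fold was that of Pdha1 at pachytene, with 3.103 FPKM in the second condition and 0.658 FPKM in the first condition (log2 fold 2.08 with 0.1 FPKM added). In the authors' deposited table the log2 fold was 2.24 with an implied error of 0.74 and q = 0.105, which did not pass. Pdha2 was nearly equal in the 2 conditions there, so the log2 ratio of Pdha2 to Pdha1 differed by -2.02, with a 95% interval of -3.55 to -0.50. Pgk1, the other X-linked member, had a pachytene log2 fold of 0.04 (implied error 0.59), and the difference between the folds of Pdha1 and Pgk1 was not tested. Markers of other cell types also differed between these columns. The 3 peritubular myoid markers summed to 19.0 FPKM in the second condition and 6.65 FPKM in the first condition and were all called. The 3 endothelial markers summed to 5.54 FPKM in the second and 1.07 FPKM in the first condition and were all called. Of the 3 leukocyte markers H2-Ab1 was called, with 43.5 FPKM in the second and 3.35 FPKM in the first condition, and Ptprc and Cd68 were under 0.5 FPKM in both with no call. The 5 Sertoli markers summed to 21.9 FPKM in the second and 17.4 FPKM in the first condition, and the 5 Leydig markers to 36.7 FPKM in the second and 42.8 FPKM in the first, with none called in either list. The most frequent ratio among values under 0.3 FPKM in this table, read as 1 fragment against 1, gave the second column 0.524 times the depth of the first. The part of these cells and of depth in the Pdha1 value was not tested.

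At leptotene/zygotene the narrowest error belonged to Gapdhs, with a log2 fold of 0.23 (implied error 0.089, q = 0.210 in the authors' deposited table), which did not pass. Gapdh had the largest negative log2 fold in that table, -0.66 with an implied error of 1.46. The 4 globin genes summed to 333 FPKM in the second condition and 38.7 FPKM in the first condition of these libraries and were all called. The 3 peritubular myoid markers, with 23.3 FPKM in the second and 4.58 FPKM in the first condition, were also all called. Kdr was called among the endothelial markers, and H2-Ab1 among the leukocyte markers, with 41.5 FPKM in the second and 6.90 FPKM in the first. No Sertoli or Leydig marker was called. The part of blood and of these cells in the member folds was not tested. In pre-meiotic material the member folds ran from -0.32 for Pdha1 to 0.47 for Pdha2, and the log2 ratio of Pdha2 to Pdha1 differed by 0.79, with a 95% interval of 0.03 to 1.55. In the same table the 6 leptotene/zygotene markers summed to 193 FPKM in the second condition and 325 FPKM in the first condition with 5 called lower, and the 4 globin genes summed to 724 FPKM in the second and 455 FPKM in the first with all called higher, and their part in this ratio was not tested. Ldhb had the narrowest error there, with a log2 fold of 0.03 and an implied error of 0.066. Of the 15 ratio changes with an error, these of Pdha2 in pre-meiotic material and at pachytene and of Ldhc at day 3 were the 3 whose interval left out 0, with no adjustment for their number.

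**Figure D3:**
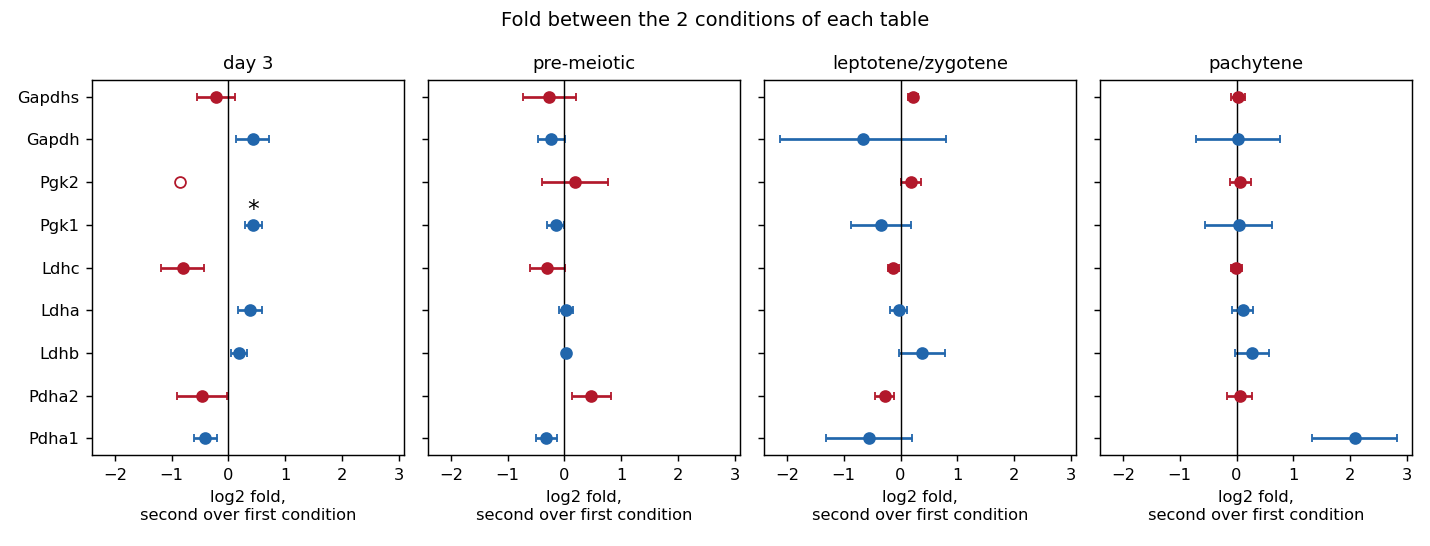
Log2 fold of the second over the first condition for each gene in each table, with 0.1 FPKM added, bars showing the error implied by the authors' test statistic and red marking germline copies. The star marks Pgk1 at day 3 as the member called, the open circle is Pgk2 listed at 0 in the second condition of day 3, whose place depends on the added 0.1, and Pdha1 at pachytene lies at 2.08.

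The rest of the route was read from a list of 50 genes for glucose uptake, glycolysis, lactate and pyruvate transport and pyruvate dehydrogenase, of which 47 reached 1 FPKM in a column. Under the same 2-fold rule 12 of the 47 (25.5%) lay above in spermatocytes, against 13.9% of all genes, 10 (21.3%) lay below, against 27.0% of all genes, and 25 did neither. From pachytene alone 15 (31.9%) lay above, against 16.4% of all genes, and 11 (23.4%) lay below, against 28.5%. These shares were not tested. The glucose transporter Slc2a3 had 408 to 1806 FPKM in spermatocyte columns and 13.8 to 26.3 FPKM in young testis columns, and the fructose transporter Slc2a5 had 342 to 415 FPKM in spermatocyte columns and 1.14 to 1.72 FPKM in young testis columns. Hexokinase 1 (Hk1), which traps glucose by phosphorylation, had 905 to 3201 FPKM in spermatocyte columns and 28.2 to 41.6 FPKM in young testis columns. The phosphofructokinase Pfkp, which commits sugar to glycolysis, had 110 to 162 FPKM in spermatocyte columns and 10.4 to 13.4 FPKM in young testis columns. The aldolase retrocopy Aldoart2 had 113 to 361 FPKM in spermatocyte columns and 19.9 to 29.1 FPKM in young testis columns. Aldoa, the parent with which it may share reads, had 111 to 237 FPKM in spermatocyte columns and 210 to 499 FPKM in young testis columns. The isomerases Gpi1 and Tpi1 lay neither above nor below under the 2-fold rule. Gpi1 had 42.6 to 249 FPKM in spermatocyte columns and 76.4 to 82.1 FPKM in young testis columns. Tpi1 had 128 to 253 FPKM in spermatocyte columns and 52.2 to 314 FPKM in young testis columns.

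The mutase Pgam2, which follows phosphoglycerate kinase, had 772 to 1055 FPKM in spermatocyte columns and 1.57 to 2.43 FPKM in young testis columns. Enolase 1 (Eno1) did not separate, with 148 to 254 FPKM in spermatocyte columns and 158 to 363 FPKM in young testis columns, and Eno4, a form of sperm, had 35.4 to 45.4 FPKM in spermatocyte columns and 0.720 to 2.58 FPKM in young testis columns. Pyruvate kinase, listed as Pkm2, had 28.5 to 126 FPKM in spermatocyte columns and 139 to 235 FPKM in young testis columns. The lactate and pyruvate carrier Slc16a7 had 174 to 314 FPKM in spermatocyte columns and 1.55 to 3.28 FPKM in young testis columns. Of the kinases that switch pyruvate dehydrogenase off, Pdk2 had 133 to 151 FPKM in spermatocyte columns and 22.1 to 32.4 FPKM in young testis columns, and Pdk1 had 2.14 to 2.73 FPKM in spermatocyte columns and 23.0 to 72.8 FPKM in young testis columns. The libraries labelled leptotene/zygotene set one end of several of these ranges by more than 1.5 times. At pachytene alone Hk1 had 905 FPKM in the second and 924 FPKM in the first condition, Slc2a3 had 1805.8 FPKM in the second and 1688.5 FPKM in the first, and Aldoart2 had 113 FPKM in the second and 139 FPKM in the first. Aldoa had 111 FPKM in the second and 121 FPKM in the first condition at pachytene, and Pkm2 had 28.5 FPKM in the second and 29.7 FPKM in the first. Eno1 had 157.43 FPKM in the second and 147.67 FPKM in the first condition at pachytene, against 157.62 FPKM at the lowest in young testis. Gpi1 had 53.2 FPKM in the second and 42.6 FPKM in the first at pachytene, and Tpi1 had 128 FPKM in the second and 135 FPKM in the first.

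**Figure D4:**
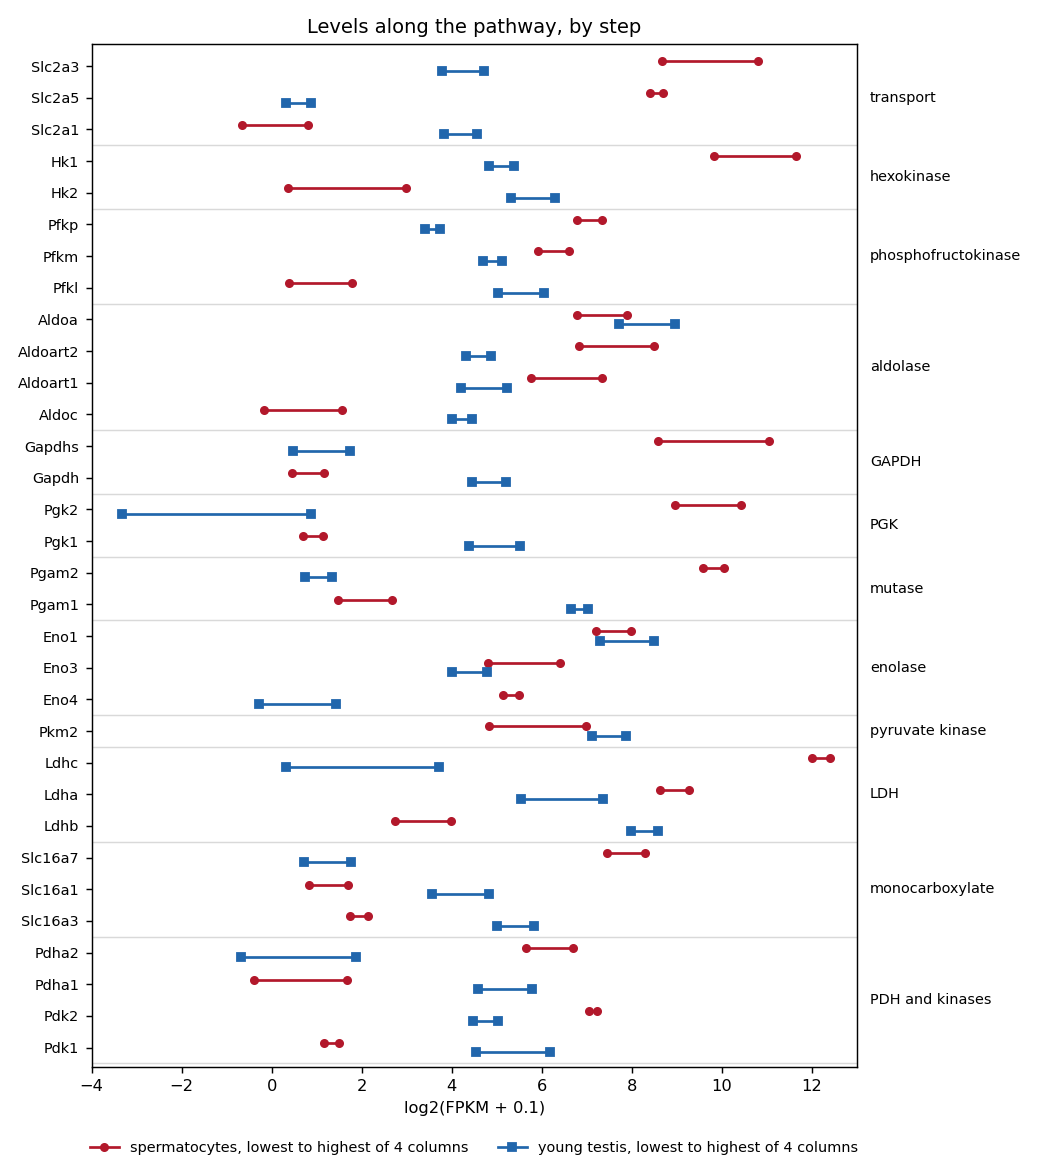
Range of log2(FPKM + 0.1) over the 4 spermatocyte columns (red circles) and the 4 young testis columns (blue squares) for genes of most steps, ordered along the route. The isomerases Gpi1 and Tpi1 are not drawn. At hexokinase, phosphofructokinase, GAPDH, PGK and mutase, 1 form lies far to the right in spermatocytes and another lies to the left, whereas Aldoa and Eno1 overlap.

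Between the 2 conditions, the authors' deposited table for day 3 called 8 of 50 genes of the route, 2 higher and 6 lower in the second condition, against 4.80% of all genes on the higher side and 9.97% on the lower side. The 6 lower were Pdk1 (log2 fold -0.88), Slc16a7 (-0.97), Hk1 (-0.56) and the regulatory enzymes Pfkfb3 (-0.77), Pfkfb4 (-0.69) and Pfkfb2 (-0.43), which set the level of an activator of phosphofructokinase. The 2 higher were the enolase Eno3 (0.77) and Brp44 (0.87), which encodes a subunit of the mitochondrial pyruvate carrier. In the authors' deposited table for pre-meiotic material, Pkm2 was higher in the second condition (log2 fold 0.28, q = 0.00238), and it was the only one of 47 called. In the authors' deposited table for leptotene/zygotene, Pfkfb4 was higher (log2 fold 0.71, q = 0.00897), and it was the only one of 46 called. At pachytene 0 of 48 were called by Cuffdiff, and 9 had an unadjusted p under 0.05, a limit at which the share of all genes was not counted.

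Pgk1 and Pdha1 were set beside 6 other X-linked genes with autosomal retrocopies. Of the 6 parents, 5 lay below in spermatocytes under the 2-fold rule, as did 31.0% of X-linked genes and 26.7% of other genes. From pachytene alone the same 5 parents lay below, as did 33.3% of X-linked genes and 28.2% of other genes. Rpl10, a ribosomal protein gene, had 2.39 to 5.65 FPKM in spermatocyte columns and 86.2 to 339 FPKM in young testis columns, and Cetn2, a centrin gene, had 3.71 to 9.28 FPKM in spermatocyte columns and 36.7 to 50.1 FPKM in young testis columns. The exception was Cstf2, with 30.8 to 76.5 FPKM in spermatocyte columns and 25.9 to 72.3 FPKM in young testis columns. Of the 6 autosomal copies 2 lay above, Cetn1 and Rpl10l, as did 13.98% of genes not X-linked. From pachytene alone 3 copies lay above, as did 16.6% of genes not X-linked. These counts of copies were not tested. Cetn1 had 449.8 to 604 FPKM in spermatocyte columns and 0.401 to 1.60 FPKM in young testis columns. Rpl10l had 72.4 to 213 FPKM in spermatocyte columns and 7.67 to 34.1 FPKM in young testis columns. Within the tables, the authors' deposited table for day 3 called Cstf2 (log2 fold -1.27) and Utp14b (-1.17) lower and Rpl10 (0.55) higher in the second condition. That for leptotene/zygotene called Cstf2 (-0.95) and Rpl10l (-1.16) lower, and no gene of the 12 was called in pre-meiotic material or at pachytene.

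The genes whose log2 levels followed each germline copy most closely over the 8 columns were named as a description. For Pgk2 they were Gsto2, Kif27 and Zbbx (Pearson r of 0.999 for Gsto2), and 295 of 22082 genes had r over 0.99. For Ldhc they were Gk2, Spata16 and Ppp3r2 (r of 0.99996 for Gk2), with 475 genes over 0.99. For Gapdhs they were Mtfr1, Pkib and Rnf139 (r of 0.999 for Mtfr1), with 414 genes over 0.99, and for Pdha2 they were Wfdc15a, Ttc18 and Dnahc8 (r of 0.999 for Wfdc15a), with 174. Gk2, an autosomal copy of the X-linked glycerol kinase gene, had 457 FPKM in the second and 522 FPKM in the first condition of the libraries labelled leptotene/zygotene and 616 FPKM in the second and 601 FPKM in the first at pachytene, against 0.0598 to 1.65 FPKM in young testis. Without the libraries labelled leptotene/zygotene the r of these 12 genes was 0.997 or more over 6 columns. The columns are of 2 kinds of material, and a high r mostly reads the difference between them.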

How the data were processed

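Messenger RNA of 8 libraries was sequenced after Trizol extraction and TruSeq library preparation, per the labels' protocols. Cufflinks 1.1.0 with Cuffdiff and TopHat 1.3.0 with Bowtie 0.12.7 are named in the submitters' processing notes, and the genome build, annotation and strand handling are not given in the sources used here. The deposited tables, 1 per stage with 36806 rows, hold FPKM of 2 numbered conditions, per the file headers. They also hold the authors' log2 fold, a test statistic (a score) and the authors' p-value and q-value, per the file headers, where a q-value of at most 0.05 in a completed test counted as called. The 2 small RNA libraries were not used here. Total counts per library are not given, so depth is unknown beyond the ratio of the 2 columns of a table.

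Log2 folds were computed here as the second over the first condition with 0.1 FPKM added, with Python 3.11.15, numpy 2.4.6 and pandas 2.3.3, and tested on simulated data. The implied error of a fold is the size of the authors' log2 fold over that of their statistic, and errors of 2 folds were added in quadrature, with 1.96 errors for a 95% interval. Germline-to-somatic log2 ratios were compared over 4 spermatocyte and 4 young testis columns by an exact two-sided permutation test, with Benjamini-Hochberg adjustment over 4 pairs. Its p covers the spread between these libraries only. Columns were grouped by material, since the headers name no genotype. Alternatives were other thresholds, added values, scaling, filters and columns left out. Named genes are the members, called genes of 2 lists (at most 6 per list and table), the highest form of each step, and 3 genes per germline copy with the highest r among genes of at least 1 FPKM in a column, leaving out predicted and clone names. Other genes named as examples were chosen after their values were seen. Members and lists were chosen with earlier results of these data known.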

Additional observations from a re-analysis of the deposited data

How the results depend on the processing

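No paired analysis was possible because by the labels each table should hold 1 library per genotype and its columns carry no replicate number. The 4 ratio differences between spermatocytes and young testis kept their direction under every alternative run, although with fewer columns no p can pass 0.05. With the sum of Ldha and Ldhb as its partner the Ldhc difference was 9.84 in place of 7.52. With 1 FPKM added the differences were 11.56 for Gapdhs, 12.44 for Pgk2, 7.16 for Ldhc and 8.84 for Pdha2, and with 0.01 FPKM added they were 12.72, 15.96, 7.57 and 10.53 in the same order. Without 1 column they ranged from 12.00 to 13.04 for Gapdhs, 13.80 to 15.57 for Pgk2, 6.58 to 8.32 for Ldhc and 9.81 to 10.93 for Pdha2 (exact permutation p = 0.0571, the smallest possible). Without 1 table (exact permutation p = 0.133, the smallest possible) they were, for Gapdhs, Pgk2, Ldhc and Pdha2 in that order, 12.28, 12.52, 5.28 and 8.84 without day 3, 12.90, 17.02, 9.76 and 11.77 without pre-meiotic material, 11.25, 14.21, 7.39 and 10.62 without the libraries labelled leptotene/zygotene, and 13.93, 15.32, 7.65 and 9.998 without pachytene. Leaving out the libraries labelled leptotene/zygotene as doubted was chosen after seeing the data. The day 3 call of Pgk1 was lost at a q-value of at most 0.01 (0 members) and when a fold of at least 2 replaced the q-value (0 members), and a 1.5-fold rule gave 2 members at day 3 and 1 at leptotene/zygotene. At pachytene 1 member, Pdha1, passed both fold rules, which 17.8% of all genes tested passed at 2-fold. The share of all genes passing at 1.5-fold was not counted in any table, so nothing is read from the 1.5-fold counts. The median member fold at day 3 was 0.18 when members under 1 FPKM were left out, against -0.22 with all 9. That filter drops the germline copies Pgk2 and Pdha2 and keeps Ldhc and Gapdhs. The day 3 change of the Pgk2 ratio, -1.29, was -0.54 with 1 FPKM added and -3.62 with 0.01 FPKM added, since Pgk2 was listed at 0 there.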

Other observations

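Other steps of the route held pairs of genes whose balance was higher in every spermatocyte column than in any young testis column. These pairs were chosen after their values were seen, so they are given as values with no test, and each ratio is taken within a column. The ratio of the hexokinases Hk1 to Hk2 was 115 to 2688 in spermatocyte columns, with 115 in the second and 249 in the first condition at pachytene, and 0.362 to 0.905 in young testis columns. The ratio of the phosphofructokinases Pfkp to Pfkl was 48.5 to 94.7 in spermatocyte columns and 0.172 to 0.337 in young testis columns. The ratio of the mutases Pgam2 to Pgam1 was 139 to 361 in spermatocyte columns, with 139 in the second and 153 in the first condition at pachytene, and 0.0152 to 0.0214 in young testis columns. The glucose transporters Slc2a3 and Slc2a1 had a ratio of 335 to 1829 in spermatocyte columns, with 1097 in the second and 1829 in the first condition at pachytene, and 0.634 to 1.88 in young testis columns. The carriers of lactate and pyruvate Slc16a7 and Slc16a1 had a ratio of 55.8 to 151 in spermatocyte columns, with 55.8 in the second and 83.5 in the first condition at pachytene, and 0.0545 to 0.281 in young testis columns. The deposited tables place each of these genes on an autosome. The kinases Pdk2 and Pdk1 had a ratio of 48.8 to 66.98 in spermatocyte columns and 0.304 to 1.41 in young testis columns, so for Slc2a3 and for Pdk2 the young testis ratios lay on both sides of 1.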
